A study of Homo sapiens with 5 samples.

Results

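The short noncoding RNA genes among the gene windows with G4 peaks in C4-2 cells comprised microRNA genes, genes of spliceosomal U RNAs, genes of small nucleolar RNAs (snoRNAs) and genes of 7S RNAs. They were taken from the list of windows of 4000 bp that the study drew around genes with a G4 peak, by names starting with hsa-mir, MIR and a digit, MIRLET, RNU, SNORD, SNORA or RN7S, and the copies of MIR3180 were left out. The rule gave 43 windows with 42 names of the 1303 windows in the list. They held 98 different peaks, which formed 42 of the 10852 regions obtained when overlapping peaks of all replicates were merged. Of the 43 windows, 22 were microRNA windows, 6 were windows of spliceosomal RNAs, 11 were snoRNA windows and 4 were 7S RNA windows.

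The peaks came from BG4 ChIP-seq, in which an antibody against folded G-quadruplexes (G4s) pulls down cross-linked chromatin. The cells were C4-2, a prostate cancer line of human origin, and all 4 replicates were cells of this one line with no treatment named, so there was 1 condition and no comparison between conditions. The input library was not analysed here. The lists of replicates 1 to 4 held 8036, 6192, 6805 and 4427 peaks, and since they carry no read counts the depth of each library is unknown. The list of windows was made from peaks of these libraries after regions known from other cell lines had been set aside, so every window held a peak by construction and the presence of a peak is no result. Positions of windows and peaks are on GRCh37.

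Small RNA genes are short and lie in varied places. MicroRNAs are cut from hairpins in longer transcripts and silence messenger RNAs through a seed near their 5′ end. U1 and U6 RNAs belong to the spliceosome, C/D box snoRNAs (SNORD) guide ribose methylation, H/ACA box snoRNAs (SNORA) guide pseudouridylation, 7SL RNA is the scaffold of the signal recognition particle and 7SK RNA holds back the elongation factor P-TEFb. Many are encoded in introns of longer genes, and U1, U6, 7SL and 7SK have many copies and pseudogenes. A G4 forms from 4 runs of guanines, and such runs are frequent just upstream of gene starts.

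The sequences that matter most for reading these windows are those of repeated genes, since reads from identical copies cannot be assigned to one of them. The transcripts of RNU1-3, RNU1-4 and RNU1-28P in GENCODE v44 (hg38) were identical over 164 bases. RNU1-143P, of 146 bases, shared 70.1% with them, where bases present in only 1 transcript of a pair counted as differences. The common sequence held no G4 motif, searched on both strands as 4 runs of at least 3 G (GGG) with loops of 1 to 7 bases (N). This sequence does not cover the summits at RNU1-3 and RNU1-4, which lay 228 to 316 bp upstream of the window centres. No sequence was compared or searched there.
RNU1-3: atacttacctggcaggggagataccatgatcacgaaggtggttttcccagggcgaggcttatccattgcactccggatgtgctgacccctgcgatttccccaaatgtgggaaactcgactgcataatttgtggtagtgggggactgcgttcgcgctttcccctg

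Transcripts of the 4 genes of the U3 snoRNA, SNORD3A, SNORD3B-1, SNORD3B-2 and SNORD3C, were 73.1% to 92.4% identical by the same count. The lowest value mostly reflects annotated length, since SNORD3B-2 and SNORD3C, of 791 and 581 bases, differed by 213 edits. It is no measure of how far the shared bases differ. Each of the 4 transcripts held the same motif on its opposite strand, at bases 467 to 488 in SNORD3A, 469 to 490 in SNORD3B-1, 468 to 489 in SNORD3B-2 and 467 to 488 in SNORD3C. It is shown as it reads in the transcript, with the capitals marking the motif.
SNORD3A: CCCGCCCGCCACTCCCACCCCC

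Of the microRNA hairpins in RefSeq (GRCh38.p14), 14 belonged to these windows, and 2 of them (14.3%) held a G4 motif, against 48 of all 1562 hairpins (3.07%). The share rests on 2 hairpins, and no difference was read from it. Taking the window centre as the hairpin start, neither hairpin lay under a peak. The summit in the MIR1469 window lay 1665 bp from the centre, and those in the MIR3621 window lay 311 to 954 bp from it. Both hairpins are shown with the motif in capitals.
MIR1469: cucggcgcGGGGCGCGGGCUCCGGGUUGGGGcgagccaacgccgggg
MIR3621: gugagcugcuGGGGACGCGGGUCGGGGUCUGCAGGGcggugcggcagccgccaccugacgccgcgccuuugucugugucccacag

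The mature sequences of miR-9 and miR-378a, microRNAs that act in neurons and in energy metabolism, are given with the seed (bases 2 to 8) in capitals. Their windows had peaks of 2 replicates and 1 replicate. The 4 seeds differ from one another, and the table held no mature sequence for the microRNAs with peaks of all 4 replicates.
miR-9-5p: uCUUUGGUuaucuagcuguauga
miR-9-3p: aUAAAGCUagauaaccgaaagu
miR-378a-5p: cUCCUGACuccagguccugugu
miR-378a-3p: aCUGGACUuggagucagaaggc

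Peaks of at least 2 replicates were found in 27 of the 43 windows (62.8%), where 49.0% of all 1303 windows had them. Peaks of at least 3 replicates were found in 15 windows, against 26.6% of all windows. All 4 replicates had a peak in 8 windows (18.6%), against 12.8% of all windows. Windows with peaks of 1 replicate only numbered 16, where 51.0% of all windows were of this kind. The order of the first of these shares depended on the width of the window. In windows of 2000 bp with the same centres, peaks of at least 2 replicates were left in 14 of the 43 windows (32.6%), against 43.4% of all windows. No p-value was computed for these counts, because windows are not replicates and neighbouring windows share peaks.

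Support is given by class, without a test of the differences. Of the 22 microRNA windows, 11 held peaks of at least 3 replicates and 6 a peak of 1 replicate, and 3 of the 5 with peaks of all 4 replicates were shared with copies of mitochondrial genes. Among spliceosomal RNA windows, 1 had peaks of all 4 replicates, 2 of 2 replicates and 3 of 1 replicate. SnoRNA windows were mostly single, with 7 of 11 (63.6%, against 51.0% of all windows) resting on 1 replicate and 2 on all 4. Among these 7, SNORD3A and SNORD3C held the same peak, and so did SNORD58A and SNORD58B. The 4 windows of 7S RNAs had peaks of 2 replicates in 3 cases and of 3 replicates in 1. A further 20 windows of other short structured RNAs (snoU13, Y_RNA, RNA5S, TRNA and SCARNA) had peaks of 1 replicate in 11 cases and of all 4 in 2.

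**Figure D1:**
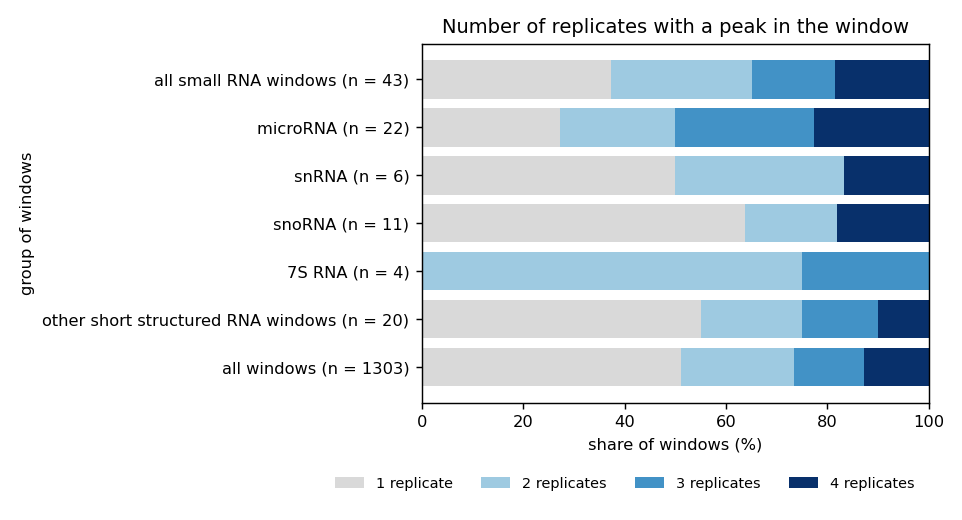
Share of windows (x axis, %) with a peak of 1, 2, 3 or 4 replicates, for the small RNA windows together, each class, other short structured RNAs and all windows; n is the number of windows. Peaks of 1 replicate only make up the largest part of the snoRNA bar (7 of 11 windows, some of which share a peak) and are missing from the 7S RNA bar.

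The number of windows with a peak followed the length of the peak lists. A peak was present in 29, 22, 28 and 14 windows for replicates 1 to 4, or 67.4%, 51.2%, 65.1% and 32.6% of them, where the shares over all windows were 62.4%, 44.6%, 52.7% and 28.7%. Replicate 4, whose list was the shortest, was lowest in both. Where a replicate had a peak, the median of the highest fold enrichment in the window, which is the ratio of the authors' peak caller over local background at the summit, was 6.69, 6.22, 7.07 and 6.45 in replicates 1 to 4, against 6.54, 6.21, 6.65 and 6.04 in the other windows. With 0 for replicates without a peak, the median over windows of the mean fold enrichment was 3.13, against 2.27 over all windows. In windows of 2000 bp the order was turned, with 1.08 against 1.8. By class this median was 4.36 for microRNAs, 2.69 for spliceosomal RNAs, 1.69 for snoRNAs and 3.65 for 7S RNAs.

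**Figure D2:**
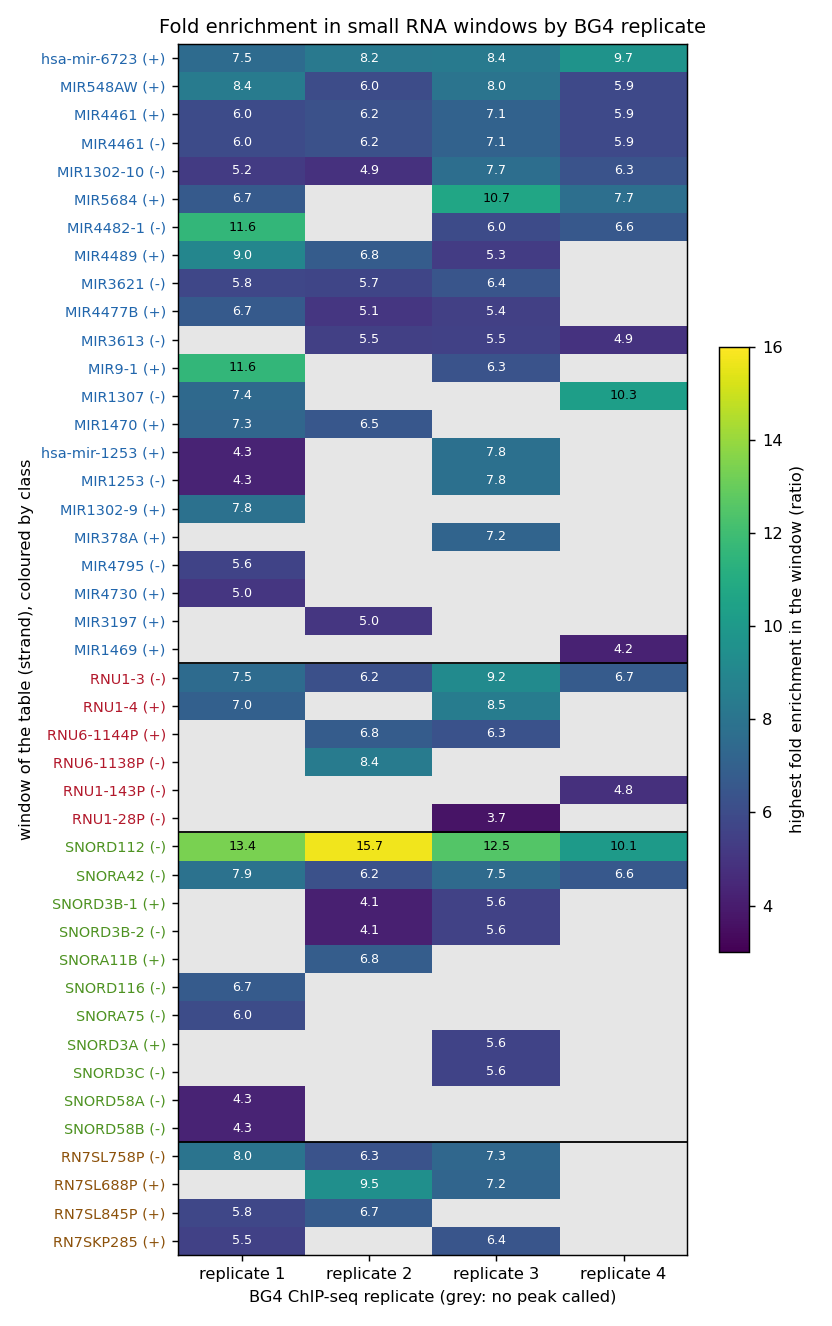
Highest fold enrichment (colour and number, ratio) in each small RNA window (rows, with strand) in replicates 1 to 4 (columns); grey cells had no peak, and row labels are coloured by class. SNORD112 is highest, with 10.1 to 15.7 in the 4 replicates, and replicate 4 has a peak in 14 of the 43 windows.

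Among the microRNA windows with peaks of all 4 replicates, hsa-mir-6723 (chr1:564454-568454) had the highest fold enrichment, with 7.52, 8.25, 8.38 and 9.70 in replicates 1 to 4 (8.46 ± 0.907, SD, n = 4). It held 3 regions, each with a peak of every replicate, and this mean mixes regions. The region nearest to its centre had summits 145 to 182 bp upstream of it. That region gave the values of replicates 1 to 3, and replicate 4 had 7.82 there. The 9.70 of replicate 4 came from a region with its summit 1082 bp downstream. This window shared 2 of its regions with MTND1P23 and MTND2P28, nuclear copies of mitochondrial genes, whose reads can be confused with mitochondrial DNA.

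MIR4461 had 2 windows, 1 for each strand, over the same region, with fold enrichments of 5.98, 6.20, 7.07 and 5.87 (6.28 ± 0.546, SD, n = 4). This region also lay in the windows of MTND5P11 and MTND4P12, again copies of mitochondrial genes. In each replicate it held at least 2 peaks. The strongest summits of replicates 1, 2 and 4 lay 753, 216 and 260 bp from the centre of MTND4P12. From the plus-strand MIR4461 centre they lay 756, 219 and 263 bp, so distance does not separate these 2 genes. The strongest summit of replicate 3 lay 339 bp from the centre of MTND5P11 and 1241 bp from the plus-strand MIR4461 centre. Because both share regions with mitochondrial copies, the values of hsa-mir-6723 and MIR4461 are uncertain as values of these microRNA genes. Without these 3 windows, 5 of 40 windows (12.5%) had peaks of all 4 replicates, against 10.1% of all windows when those shared with such copies were left out as well.

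MIR1302-10 (chr15:102499611-102503611) had fold enrichments of 5.24, 4.87, 7.68 and 6.34 (6.03 ± 1.26, SD, n = 4), with summits 186 to 256 bp upstream of the centre. MIR1302-9 had a peak of replicate 1 only (7.84), with its summit 38 bp from the centre. Both lie beside a WASH pseudogene, WASH3P and WASH5P, whose windows held the same region. MIR1302 genes and their WASH neighbours are repeated near chromosome ends, and values of single copies are uncertain.

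MIR548AW (chr9:135819094-135823094) had fold enrichments of 8.39, 6.02, 8.01 and 5.86 (7.07 ± 1.31, SD, n = 4). All 4 summits lay 744 to 943 bp upstream of its centre. The region also lay in the windows of TSC1, which encodes the tuberous sclerosis protein hamartin, GFI1B, a transcriptional repressor of blood cells, and RP11-295G24.4. Its nearest window centre was that of TSC1, 131 to 330 bp away.

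In the 6 microRNA windows with peaks of 3 replicates, every summit lay at least 311 bp from the centre. MIR5684 had fold enrichments of 6.69, 10.7 and 7.74 in replicates 1, 3 and 4, with summits 468 to 527 bp upstream. MIR4482-1 had 11.6, 5.99 and 6.58 in the same replicates, and its region lay nearer to the centre of GSTO2, which encodes a glutathione transferase (261 to 276 bp), than to its own (715 to 730 bp). MIR3613 had 5.46, 5.52 and 4.92 in replicates 2 to 4, in a region shared with TRIM13, which encodes a ubiquitin ligase of the endoplasmic reticulum.

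The other 3 such windows lacked a peak of replicate 4. MIR4489 had 8.99, 6.79 and 5.32 in replicates 1 to 3, with summits 1765 to 1937 bp upstream. MIR3621 had 5.77, 5.71 and 6.44, in regions shared with LRRC26, which encodes a subunit of BK potassium channels. The 5.77 of replicate 1 came from a peak with its summit 311 bp upstream. A further peak of replicate 1, 939 bp downstream, had 5.19, and the summits of replicates 2 and 3 lay 954 bp downstream. MIR4477B had 6.66, 5.07 and 5.44, shared with LINC00537, and its summits lay 1993 to 2072 bp upstream, at the edge of the window. MIR4477B has a near-identical copy, so reads may be split between them.

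Of the 5 microRNA windows with peaks of 2 replicates, MIR9-1 was the highest in a single replicate, with 11.6 in replicate 1 and 6.33 in replicate 3 and none in replicates 2 and 4. The 2 summits were 11 bp apart, 1514 and 1503 bp downstream of the centre by the plus strand of the list. In hg38 MIR9-1 is on the minus strand, for which this side is upstream. MIR1307 had 7.43 in replicate 1 and 10.3 in replicate 4, with both summits more than 2000 bp upstream. Its merged region held peaks of 3 replicates, so the count of 2 was set by the edge of the window. MIR1470 had 7.30 and 6.55 in replicates 1 and 2, 360 and 252 bp downstream, and its region was nearer to the centre of WIZ, which encodes a zinc finger partner of histone methyltransferases. The windows hsa-mir-1253 and MIR1253 name 1 locus on both strands and held the same region, with 4.30 in replicate 1 and 7.78 in replicate 3, in a region nearest to the centre of a clone-named transcript of the list.

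The remaining 6 microRNA windows rested on 1 replicate. Besides MIR1302-9, MIR378A had 7.19 in replicate 3, MIR4795 had 5.60 and MIR4730 had 5.05 in replicate 1, MIR3197 had 5.04 in replicate 2 and MIR1469 had 4.24 in replicate 4. MIR3197 shared its region with BACE2, a relative of the beta-secretase gene, and MIR4795 shared its region with CHMP2B, which encodes a subunit of the ESCRT-III complex. In both, the nearest centre was that of the protein-coding gene. The summit of MIR4730 lay 47 bp from its own centre, while that of MIR1469, whose hairpin holds the motif shown above, lay 1665 bp upstream.

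Among the spliceosomal RNA windows, RNU1-3 (chr1:16991443-16995443) was the only one with peaks of all 4 replicates, at 7.53, 6.16, 9.24 and 6.71 (7.41 ± 1.35, SD, n = 4). Its summits were 228 to 245 bp upstream of the window centre and differed by 17 bp. No other window of the list held this region. RNU1-4, of identical sequence, had 6.99 in replicate 1 and 8.47 in replicate 3, with summits 278 and 316 bp upstream, nearest to the centre of CROCC, which encodes the ciliary rootlet protein rootletin.

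The other U1 windows were weak. RNU1-28P had 3.71 in replicate 3, the lowest value of a small RNA window in that replicate, with its summit 17 bp from the centre. RNU1-143P had 4.82 in replicate 4, in a region nearest to the centre of RP11-403I13.8. Identical copies can exchange reads, but only transcripts were compared, and the summits at RNU1-3 and RNU1-4 lay upstream of the window centres. Whether reads were exchanged there was not tested. The level at RNU1-3 and its difference from other copies are uncertain. The U6 windows are pseudogenes. RNU6-1144P had 6.79 and 6.30 in replicates 2 and 3, with summits 2153 and 2101 bp downstream, just outside its window, and RNU6-1138P had 2 peaks of replicate 2 (8.40 and 5.52), 1916 and 1132 bp downstream.

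The highest fold enrichment of any small RNA window was that of SNORD112 (chr7:148981604-148985604), with 13.4, 15.7, 12.5 and 10.1 in replicates 1 to 4 (12.9 ± 2.32, SD, n = 4). Its peaks stood at 12.3%, 5.89%, 13.9% and 18.8% from the top of the 4 lists ranked by fold enrichment. The summits lay within 28 bp of one another, 1333 to 1361 bp downstream of the centre of the SNORD112 window and 101 to 129 bp from that of RP4-800G7.2. The value therefore belongs to a region nearer to another transcript of the list than to the snoRNA.

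SNORA42 (chr16:30429080-30433080) was the other snoRNA window with peaks of all 4 replicates, at 7.91, 6.24, 7.49 and 6.56 (7.05 ± 0.777, SD, n = 4). Its summits lay 1642 to 1762 bp downstream of the centre, and no other window of the list held the region. The U3 windows came in opposite-strand pairs that shared 1 region each. SNORD3B-1 and SNORD3B-2 had 4.12 in replicate 2 and 5.58 in replicate 3, 255 and 494 bp downstream of the centre of SNORD3B-1. SNORD3A and SNORD3C had 5.62 in replicate 3, 155 bp downstream of the centre of SNORD3A. The U3 copies are alike enough for reads to be shared among them.

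The other snoRNA windows had a peak of 1 replicate each. SNORD58A and SNORD58B, which lie within the ribosomal protein gene RPL17, held the same peak of replicate 1 (4.30), and its nearest centre was that of RPL17, 220 bp away. SNORD116 (6.74) and SNORA75 (6.04) had a peak of replicate 1, and SNORA11B (6.85) had one of replicate 2. The summits of these 3 lay 1578, 1784 and 1111 bp from the centre. The SNORD116 window lies on chromosome 1 and is a copy outside the imprinted cluster of that name. The names SNORD112, SNORA42 and SNORA75 matched no single gene of hg38 on the chromosomes of their windows. Whether these windows hold the established genes of those names was not tested.

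The 7S RNA windows carried names of pseudogenes. RN7SL758P had 7.99, 6.33 and 7.32 in replicates 1 to 3, with summits 1436 to 1666 bp downstream. RN7SL688P had 9.46 and 7.23 in replicates 2 and 3, 889 and 952 bp upstream. RN7SL845P had 5.79 and 6.72 in replicates 1 and 2, and RN7SKP285, derived from 7SK RNA, had 5.50 and 6.43 in replicates 1 and 3. Summits of RN7SL845P lay 2076 and 2068 bp downstream, and those of RN7SKP285 lay 1939 and 2074 bp downstream, so that peaks of both reached the window at its edge. No other window of the list held the regions of these 4.

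**Figure D3:**
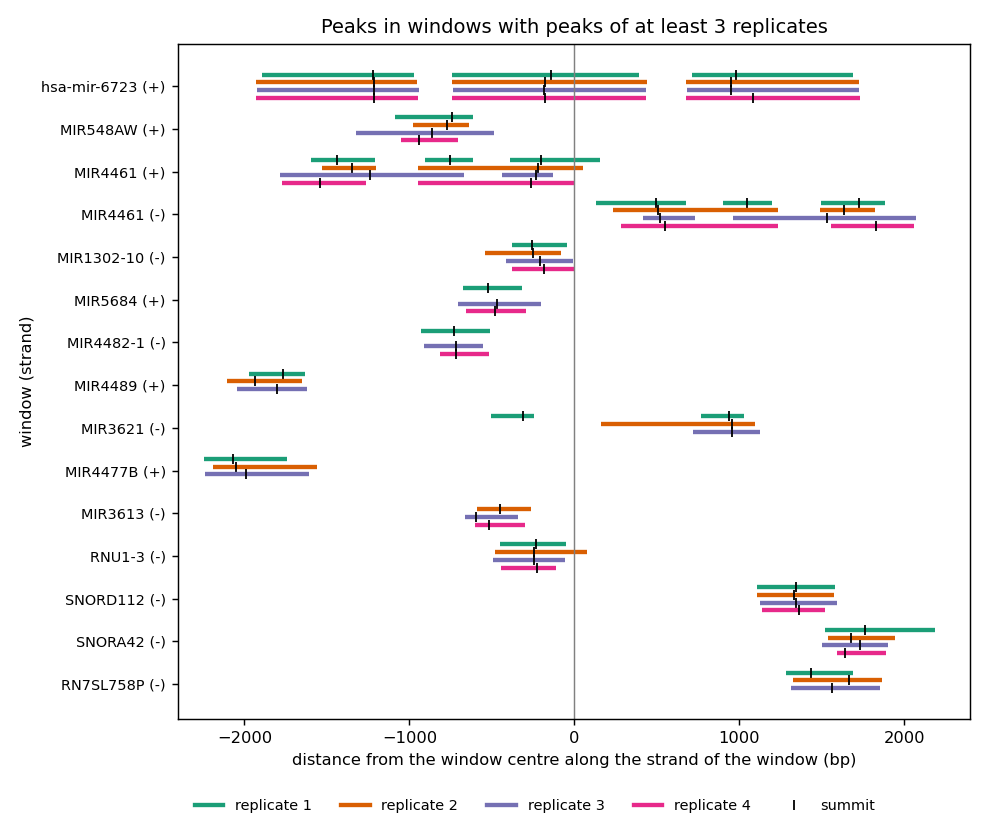
Peaks (coloured bars, 1 colour per replicate) and summits (black ticks) in the 15 windows with peaks of at least 3 replicates, as distance from the window centre along the strand of the window (x axis, bp). SNORD112, SNORA42 and RN7SL758P have all their summits at least 1333 bp downstream, and MIR4489 and MIR4477B have theirs at least 1765 bp upstream.

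Summits lay away from the centres of small RNA windows. Of the 89 summits that fell inside a small RNA window, the share within 250 bp of a centre was 17.9%, 14.3%, 24.0% and 20.0% in replicates 1 to 4 (19.0% ± 4.06, SD, n = 4). In the other windows it was 58.7%, 61.4%, 60.1% and 61.7% (60.5% ± 1.38, SD, n = 4). Each summit was measured to the closest centre of its own group, and a summit in windows of both groups counted in each. The other windows overlapped more, with 1841 different peaks counted 2599 times over windows, against 98 peaks counted 113 times. Having more centres to choose from favours a near one in the other windows. The share was lower in small RNA windows in 4 of 4 replicates, with a mean difference of -41.4 percentage points (SD 4.51) and no overlap between them. An exact paired permutation test over the 4 replicates gave a two-sided p = 0.125, the smallest that 4 pairs allow, so this design cannot pass 0.05. The shares were 34.9% and 76.2% within 500 bp, and 57.8% and 89.8% within 1000 bp.

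The median distance to the centre was 839.5 to 950.0 bp in the replicates for small RNA windows and 153.0 to 169.0 bp for the other windows. The share within 250 bp was 18.7% for microRNAs, 50% for spliceosomal RNAs and 6.25% for snoRNAs, and 42.7% for the other short structured RNAs. Most of the summits near a centre came from windows of repeated or mitochondrial-like sequence. A subset defined after the data were seen left out windows shared with mitochondrial copies and the multi-copy families RNU1, SNORD3, MIR1302 and MIR4477. In it the share was 1.39% over 29 windows, against 61.2% of all windows after the same removal. Peaks of at least 2 replicates were found in 18 of these 29 (62.1%), against 46.8% of all windows after the same removal.

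**Figure D4:**
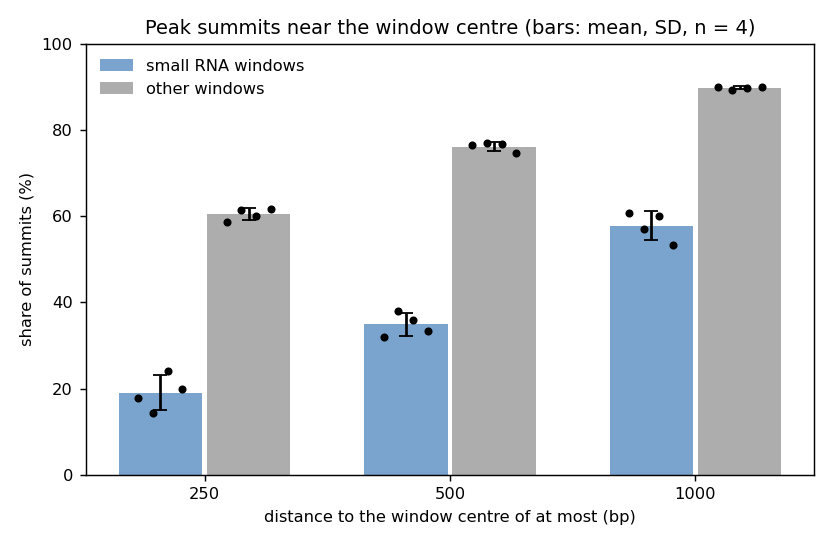
Share of peak summits (y axis, %) within 250, 500 or 1000 bp of the window centre (x axis) for small RNA windows (blue) and the other windows (grey); bars are means with SD over 4 replicates and points are the replicates. Every point of the small RNA windows lies below every point of the other windows at the same distance, with means of 19.0% and 60.5% within 250 bp.

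Many regions were shared with other genes. A region was also held by a window of another name in 26 of the 43 windows (60.5%), where 43.7% of all windows shared one. Without the mitochondrial-like windows and the multi-copy families it was 13 of 29 (44.8%), against 41.0% of all windows without them. Of the 42 regions, 23 lay in windows of more than 1 name, and in 13 of these the nearest centre belonged to a gene that is not among the small RNAs. The other 19 regions lay in a small RNA window alone.

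Gene starts outside the list were examined in GENCODE v44, whose build (hg38) differs from that of the peaks. No position was carried from one build to the other, and only distances were set side by side: that from the small RNA gene to a longer gene's start in hg38, and that from the window centre to the summits in GRCh37. The comparison takes the window centre as the start of the small RNA gene. Spacing of the centres of overlapping windows equalled that of their hg38 gene starts within 50 bp in 78 of 135 pairs. Of the pairs with a small RNA window, 13 of 18 did. MIR548AW with TSC1 and with GFI1B, and MIR1302-10 with WASH3P, were among those that did not. Of the 43 windows, 35 matched 1 gene of hg38, and 8 did not. The small RNA lay inside a coding or long noncoding gene in 25 of the 35, in 15 of them in introns only. A gene start of this kind lay within 3000 bp in 21 windows, and in 15 it was within 500 bp of a summit distance. The 15 are not all separate loci. Among them, hsa-mir-1253 and MIR1253 share a region and the start of CCDC92B, and SNORD58A and SNORD58B share a region and the start of RPL17. For 10 of the 35 the median summit was within 500 bp of the small RNA's own start, 4 of which were among the 15. MIR3621 counted among the 15 only through 1 peak of replicate 1, 311 bp upstream on the side of the LRRC26 start, while the median of its summits lay 946 bp downstream. With the median summit of each window in place of that of each region, 14 windows matched.

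The number depended on what was taken as a start. Gene starts were used first, and 2 further definitions were tried after that result was known. Starts of canonical transcripts gave 17 of 35 windows, and canonical starts with those of RefSeq, keeping the closest for each gene, gave 19. Keeping the closest of several starts favours a match, so the rise to 19 is not further evidence. The 500 bp limit was also set with the data in view, and with gene starts 13 windows matched at 250 bp and 17 at 1000 bp. The share that would match in windows of other genes was not measured. RNU1-143P and MIR4477B lie in parts of the genome that were rebuilt between the assemblies, and their distances cannot be compared.

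The closest match was RN7SL845P, where the start of ACTR3B, a gene of the actin-related protein family, lay 2087 bp downstream and the summits 2072 bp. For MIR1307 the starts of ATP5MK, which encodes a subunit of ATP synthase, and PDCD11, a ribosome biogenesis gene, lay 2091 and 2225 bp upstream, and the summits 2149 bp. For RN7SKP285 the start of RNPC3, which encodes a protein of the minor spliceosome, lay 2129 bp downstream and the summits 2006 bp. For RNU6-1144P the start of AFG1L, which encodes a mitochondrial ATPase, lay 2225 bp downstream and the summits 2127 bp. For MIR1470 the start of WIZ lay 408 bp downstream and the summits 306 bp. The start of MIR9-1HG, the host transcript of MIR9-1, matched only in RefSeq (1428 bp and 1508 bp), and the strand of MIR9-1 differs between the list and hg38. TRIM13 matched MIR3613 only by its canonical start (541 bp and 515 bp).

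**Figure D5:**
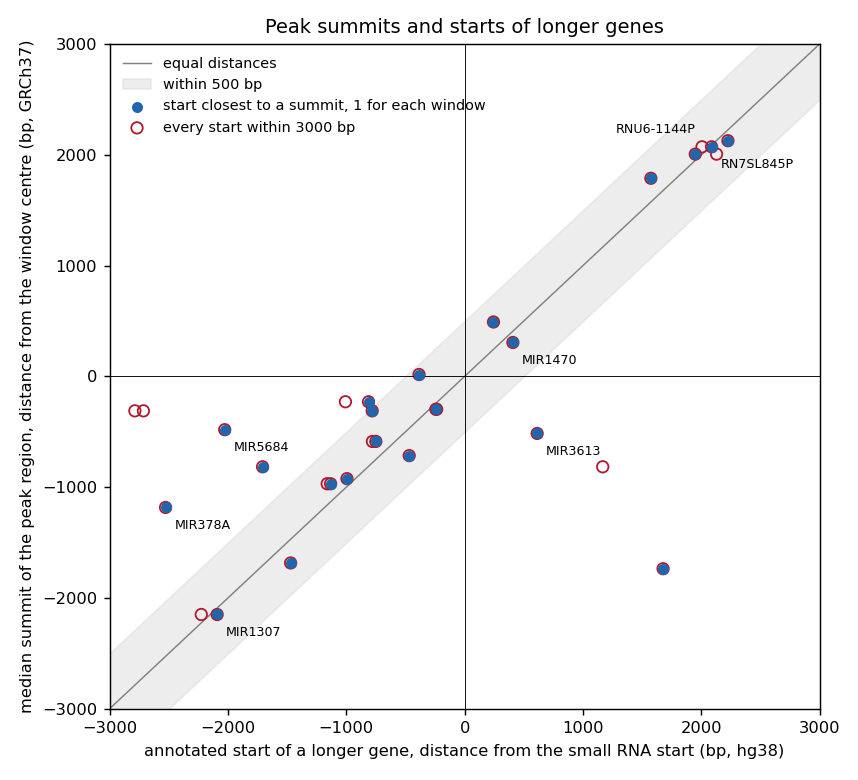
Distance from the small RNA start to gene starts of longer genes in hg38 (x axis, bp) against the median summit distance of the peak region nearest to that start from the window centre in GRCh37 (y axis, bp); red circles are every gene start within 3000 bp, blue points the one of each window closest to a summit. Of the 21 windows with a start in this range, 15 lie in the grey band of 500 bp, MIR3621 by a peak of 1 replicate. Choosing the closest start draws the blue points towards the line. The windows hsa-mir-1253 and MIR1253 show the same region, as do SNORD58A and SNORD58B.

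Beside windows with peaks of at least 3 replicates, promoters were taken from RefSeq (GRCh38.p14) where a start lay within 500 bp of a summit distance. This gave 4 genes, with sequence from 250 bases before to 50 after the start. None held the G4 motif on either strand. Neighbours beyond the limit, such as GFI1B beside MIR548AW and TMEM210 beside MIR3621, were not included. LRRC26 came within it only through the peak of replicate 1, 311 bp upstream. The promoters of GSTO2, TSC1 and LRRC26, beside MIR4482-1, MIR548AW and MIR3621, are shown. The fourth, of LOC124902497 beside MIR4482-1, overlaps that of GSTO2 on the opposite strand and is not repeated.
GSTO2, chr10:104268934-104269233, plus strand: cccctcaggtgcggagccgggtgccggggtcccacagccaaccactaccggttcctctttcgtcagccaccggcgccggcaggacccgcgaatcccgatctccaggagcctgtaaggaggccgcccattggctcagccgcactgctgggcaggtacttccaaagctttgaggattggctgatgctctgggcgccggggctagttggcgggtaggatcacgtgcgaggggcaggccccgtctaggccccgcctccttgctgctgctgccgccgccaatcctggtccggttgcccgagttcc
TSC1, chr9:132944567-132944866, minus strand: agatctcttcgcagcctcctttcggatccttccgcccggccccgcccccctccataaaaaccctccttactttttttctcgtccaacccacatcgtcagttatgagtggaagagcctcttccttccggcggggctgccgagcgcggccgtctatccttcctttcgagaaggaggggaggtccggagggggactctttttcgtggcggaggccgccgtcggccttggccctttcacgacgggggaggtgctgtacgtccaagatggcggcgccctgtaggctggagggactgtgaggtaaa
LRRC26, chr9:137170002-137170301, minus strand: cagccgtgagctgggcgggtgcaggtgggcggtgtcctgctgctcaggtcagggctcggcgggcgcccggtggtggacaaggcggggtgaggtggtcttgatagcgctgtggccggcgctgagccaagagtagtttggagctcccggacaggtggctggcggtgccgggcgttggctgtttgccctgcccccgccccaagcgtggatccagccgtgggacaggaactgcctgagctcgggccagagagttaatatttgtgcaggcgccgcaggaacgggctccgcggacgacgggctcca

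A pair of promoters was added after their sequence was seen, beside RN7SL845P and MIR9-1, because each holds the motif, which is in capitals. They show what the motif looks like near these summits and stand for no share.
ACTR3B, chr7:152759502-152759801, plus strand: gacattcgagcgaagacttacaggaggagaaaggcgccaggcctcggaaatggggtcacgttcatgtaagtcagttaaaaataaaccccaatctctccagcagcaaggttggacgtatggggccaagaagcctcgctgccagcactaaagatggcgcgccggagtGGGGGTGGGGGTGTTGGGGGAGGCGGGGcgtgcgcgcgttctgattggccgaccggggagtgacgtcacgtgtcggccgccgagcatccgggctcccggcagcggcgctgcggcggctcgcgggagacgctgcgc
MIR9-1HG, chr1:156421720-156422019, minus strand: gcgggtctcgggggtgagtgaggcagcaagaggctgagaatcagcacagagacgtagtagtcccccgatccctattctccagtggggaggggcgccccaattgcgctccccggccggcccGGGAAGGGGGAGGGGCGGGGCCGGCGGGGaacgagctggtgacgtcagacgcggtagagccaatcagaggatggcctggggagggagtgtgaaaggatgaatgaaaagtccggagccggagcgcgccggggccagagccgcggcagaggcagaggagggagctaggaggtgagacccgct

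The motif was present in 8778 of all 35116 promoter sequences (25.0%). Of the promoters near the summits it was present in 2 of 13 (15.4%) with gene starts and in 2 of 12 (16.7%) with canonical starts. With RefSeq starts added it was present in 7 of 21 (33.3%), or in 5 of 17 (29.4%) when 1 promoter was kept for each gene. These shares fall on both sides of the 25.0% of all promoters, so no direction was read from them. Promoters of some genes overlap, such as those of ATP5MK and PDCD11, and those of RPL17 and RPL17-C18orf32 are the same sequence. Some bases were therefore counted more than once. With loops of up to 12 bases the share ranged from 30.8% to 47.6%, against 37.8% of all promoters.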

How the data were processed

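BG4 ChIP-seq was measured in 4 replicates of C4-2 cells. According to the submitters' processing notes, bcl2fastq 1.8.4, Bowtie2 2.2.5, SAMtools 1.11 and MACS2 2.1.1 were used with hg19, whereas the methods name hg38. The last peak on chromosome 1 ends at 249201060, which lies beyond that chromosome in hg38, and positions were taken as GRCh37 (hg19). The deposited fold enrichment is a ratio over local background computed by the authors with MACS2. As deposited, p-values and q-values are in −log10 units from MACS2, and the highest q-value was 0.0500. The deposited score was not used. The lists hold no counts, so depth and counting error are unknown.

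Peaks were assigned to windows of 4000 bp by an overlap of at least 1 bp and merged over replicates by the same overlap. Fold enrichment per window was the highest of each replicate. The highest value was averaged over replicates with 0 where none was called. Members, lists and comparisons were chosen with earlier results of these data known. Every member window was named, with values in each replicate for those with peaks of at least 3 replicates. The definitions of gene starts, the 500 bp limit, the looser motif and the multi-copy subset were chosen after the data were seen, and each value obtained is given. Sequences were taken from RefSeq (GRCh38.p14) and GENCODE v44 by symbol, and 16 of 20 microRNA symbols had one. Nothing between conditions was tested. The alternatives were stricter peaks, narrower windows, other overlaps and summaries, and each replicate left out. The 3 counting steps were tested on 400 simulated windows, with 100% recovered. Python 3.11.15, numpy 2.4.6, scipy 1.17.1 and matplotlib 3.10.9 were used.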

Additional observations from a re-analysis of the deposited data

How the results depend on the processing

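Of 56 values recomputed under an alternative, 41 stayed within the limits set for them and 15 moved. Keeping only the 3000 peaks per replicate with the highest −log10 q left 7 windows with peaks of at least 2 replicates (16.3% against 14.0%). Here and below, the second value is that of all windows. Peaks of all 4 were left in 2 windows (4.65% against 4.07%), and the median fold enrichment was 0 in both groups. A region was shared in 9 windows (20.9% against 14.4%), and the summit share within 250 bp was 23.6% against 66.2%. With windows of 2000 bp, 14 windows had peaks of at least 2 replicates (32.6%) and the median was 1.08, both below the 43.4% and 1.8 of all windows, whereas 16 shared a region (37.2% against 35.1%), because peaks far from the centre drop out. Without windows shared with mitochondrial copies, 5 windows had peaks of all 4 replicates (12.5% against 10.1%). The summit share was then 15.0% against 61.5%. Averaging only replicates with a peak gave a median of 6.28. The summit share was 34.9% within 500 bp and 57.8% within 1000 bp. Without multi-copy families, an alternative added after the data were seen, 16 of 32 windows shared a region (50% against 43.3%). The summit share was then 10.8% against 59.9%. Leaving out 1 replicate gave 18 to 26 windows with peaks of at least 2 replicates, 8 to 12 with peaks of all remaining replicates, medians of 2.61 to 4.03, 22 to 25 shared windows and summit shares of 17.4% to 20.6%. No paired analysis was possible between conditions because there is 1 condition, and the only pairing used was that of both kinds of window within a replicate. Without read counts, a window without a peak in a replicate cannot be told apart from one below that library's detection.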
